A study of Mus musculus with 8 samples.

Results

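Kallikreins, matriptase, prostasin and the Kunitz inhibitors of these proteases were followed in RNA-seq libraries labelled as skin wounds given rFGF4 (recombinant fibroblast growth factor 4) or PBS. The 10 genes were taken by symbol: the kallikreins KLK5, KLK6, KLK7, KLK8, KLK10 and KLK11, the membrane-anchored proteases ST14 (matriptase) and PRSS8 (prostasin), and the inhibitors SPINT1 and SPINT2. All 10 had a row among the 58304 genes kept from the table. Per the labels, both groups were C57BL/6 mice aged 6 to 8 weeks, and RNA was taken at day 6 from a 2 mm zone round the wounds, with 4 libraries labelled PBS and 4 labelled rFGF4. The labels do not say whether a library came from 1 animal or from several, so the p-values measure the spread between these libraries only.

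The table itself did not match the labels on species. Of the gene identifiers kept, 58304 were human and 0 were mouse, so groups are called by their column labels and nothing is claimed for mouse wounds. The sources used here do not say from which cells the values came. Libraries held 62044121 to 73680756 counts, and 11536 genes with a mean of at least 1 FPKM (fragments per kilobase, adjusted for how many fragments the library mapped) were tested. The labelled tissue was matched in part, by keratinocyte markers: 7 of 7 basal markers were at a mean of at least 1 FPKM, as were 5 of 10 markers of differentiated keratinocytes. Of simple and gland epithelium, 6 of 7 markers were at that level, led by KRT19 (mean 669.7 FPKM). For dermal fibroblasts, T cells, mast cells, melanocytes and skeletal muscle it was 0 of 6, 0 of 4, 0 of 5, 0 of 4 and 0 of 4 markers, and for endothelium, macrophages and neutrophils 1 of 5, 1 of 5 and 2 of 5.

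Tissue kallikreins are secreted serine proteases whose genes lie side by side in 1 cluster. In the epidermis they are made as inactive precursors, activate each other, and cut the desmosomal proteins that hold cornified cells together. Matriptase is a transmembrane serine protease of epithelia that works with prostasin, a protease held at the membrane by a lipid anchor. SPINT1 and SPINT2 encode HAI-1 and HAI-2, transmembrane Kunitz-type inhibitors that keep matriptase and prostasin in check.

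Prostasin was the single member that passed the test between the groups. The other 8 members tested did not pass in either direction, and KLK11 was below the filter on low values. That is 1 of 9 tested members lower and 0 higher, or 11.1% called, beside 10% of all 11536 genes tested (5.49% higher and 4.54% lower; edgeR quasi-likelihood test, adjusted p under 0.05). The members' share was near that of all genes. At an unadjusted p under 0.05, 2 members were lower and 0 higher. The share of all genes at that cut is not given here, so no lean is read from it. DESeq2 called 0 members higher and 1 lower, beside 982 higher and 846 lower of all genes tested. The median log2 fold change was −0.02 over the 9 members and 0.00 over all genes tested, and the median size of change was 0.10 beside 0.15. In FPKM, rFGF4 libraries lay wholly below PBS libraries for 2 of the 9 tested members (KLK5 and PRSS8) and wholly above for 0, beside 10.4% and 8.76% of all genes tested. After TMM scaling this held for PRSS8. KLK11, which is not among those genes, also lay wholly below on both scales.

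By level, KLK5 led the members at a mean of 59.8 FPKM over the 8 libraries. It was followed by ST14 (42.6), SPINT2 (34.4), SPINT1 (25.6), KLK10 (21.9), KLK8 (15.0), PRSS8 (12.8), KLK7 (4.53), KLK6 (4.52) and KLK11 (0.938). In this order the ranges over libraries did not overlap for KLK5 and ST14, ST14 and SPINT2, SPINT2 and SPINT1, PRSS8 and KLK7, or KLK6 and KLK11. They overlapped for SPINT1 and KLK10, KLK10 and KLK8, KLK8 and PRSS8, and KLK7 and KLK6. KLK7 was above KLK6 in 4 of 8 libraries, so their order was not settled.

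**Figure D1:**
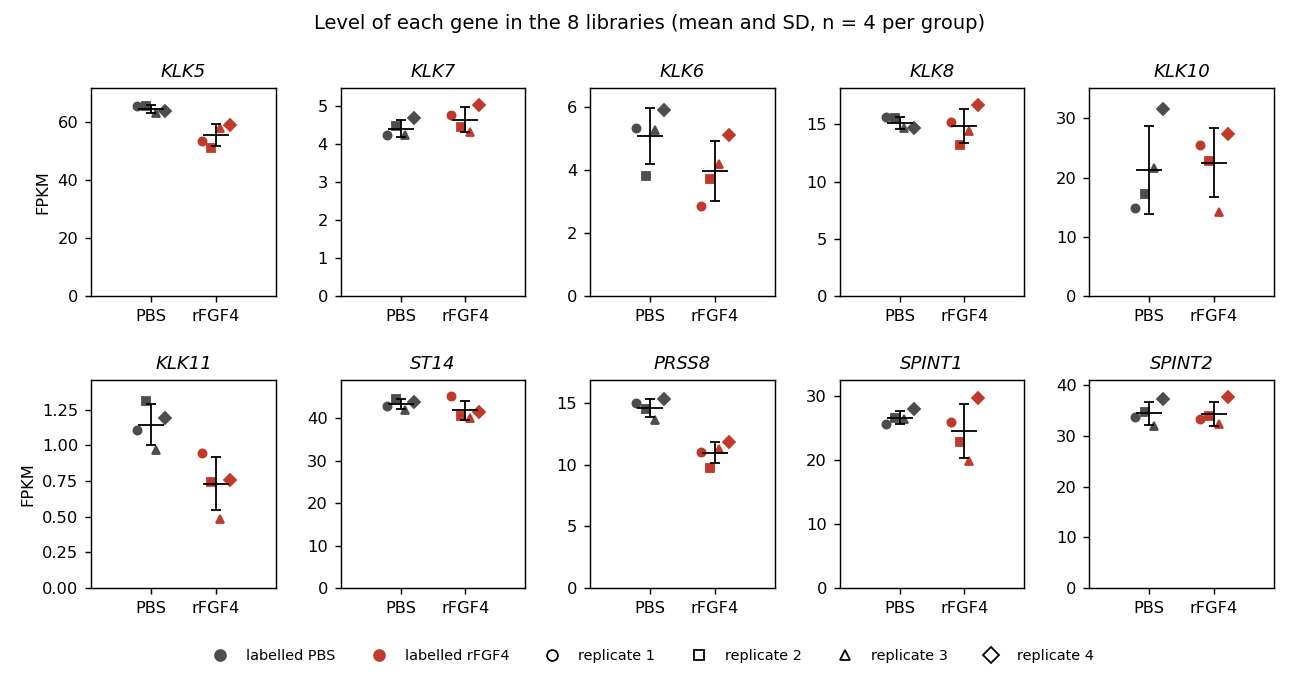
Level of each of the 10 genes in FPKM (vertical axes, each starting at 0) in the libraries labelled PBS (grey) and rFGF4 (red); each symbol is 1 library, its shape the replicate number, and the bars are the mean and SD (n = 4). PRSS8 lies at 13.6 to 15.3 FPKM in the PBS libraries and at 9.74 to 11.8 in the rFGF4 libraries, while KLK10 spreads from 14.8 to 31.6 FPKM within the PBS group.

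KLK5, a trypsin-like protease placed at the head of the epidermal kallikrein cascade because it activates other kallikreins, was the most abundant of them. It lies on chromosome 19 (50943303 to 50953065, minus strand, as the table gives coordinates; no source used here names the genome build). The PBS libraries stood at 65.4, 65.3, 62.9 and 63.7 FPKM and the rFGF4 libraries at 53.4, 50.9, 57.7 and 59.0 FPKM. Every rFGF4 library was below every PBS library in FPKM. After TMM scaling the groups overlapped, with PBS libraries at 122 to 129.8 CPM (counts scaled to the library total) and rFGF4 libraries at 98.9 to 123 CPM. The difference did not pass the test, with a fold of 0.875 for rFGF4 over PBS (95% interval 0.777 to 0.986, edgeR adjusted p = 0.155).

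KLK7, the chymotrypsin-like kallikrein that KLK5 activates, stood far below KLK5 in FPKM. Its level was 4.41 ± 0.21 FPKM in the PBS libraries and 4.64 ± 0.32 FPKM in the rFGF4 libraries (mean ± SD, n = 4). The single libraries were at 4.25, 4.47, 4.24 and 4.69 FPKM and at 4.77, 4.46, 4.31 and 5.03 FPKM, and the groups overlapped. The fold was 1.07, with a 95% interval of 0.925 to 1.24 (edgeR adjusted p = 0.568).

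KLK8, also called neuropsin, is a trypsin-like kallikrein of the epidermis and the brain. It stood at 15.1 ± 0.51 FPKM in the PBS libraries and 14.8 ± 1.47 FPKM in the rFGF4 libraries. The PBS libraries lay between 14.7 and 15.6 FPKM and the rFGF4 libraries between 13.1 and 16.6 FPKM. The log2 fold change was 0.00 (95% interval −0.22 to 0.22, edgeR adjusted p = 0.9996). Counts of this gene are uncertain because a second gene model on the same strand, named AC011473 in the table, spans nearly all of it, over 6694 bases. That model held 244 counts in PBS replicate 4 and 0 to 26 in the other libraries, and KLK9, which overlaps KLK8 by 204 bases, held 92 counts in PBS replicate 1 and, besides it, reads in rFGF4 replicate 4 alone. With the counts of both models added to KLK8, an alternative chosen after seeing the data, its log2 fold change was −0.05 (edgeR adjusted p = 0.795).

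KLK10, studied as a candidate tumour suppressor of breast epithelium, was the least even of the tested members between libraries of 1 group. The PBS libraries stood at 14.8, 17.3, 21.6 and 31.6 FPKM, and the rFGF4 libraries at 25.5, 22.8, 14.2 and 27.4 FPKM. The highest library was 2.14 times the lowest in the PBS group and 1.92 times in the rFGF4 group. The within-group SD of log2 CPM was 0.46, higher than that of 92.8% of the genes tested, beside a median of 0.15. The fold of 1.07 had a wide interval, from 0.692 to 1.66, and an adjusted p of 0.864 by edgeR.

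KLK6, a trypsin-like kallikrein best known from the nervous system, was uneven too. Its PBS libraries stood at 5.33, 3.81, 5.26 and 5.88 FPKM and its rFGF4 libraries at 2.85, 3.73, 4.18 and 5.10 FPKM. The groups overlapped and the fold of 0.800 (95% interval 0.578 to 1.11) did not pass (edgeR adjusted p = 0.384). Its within-group SD of 0.31 exceeded that of 85.1% of genes tested.

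KLK11, a further trypsin-like kallikrein, stood at 1.11, 1.31, 0.970 and 1.19 FPKM in the PBS libraries and at 0.944, 0.742, 0.486 and 0.755 FPKM in the rFGF4 libraries. Each rFGF4 library was below each PBS library, although the lowest of the PBS group and the highest of the rFGF4 group lay close together. With 126 to 315 counts per library and a mean of 0.938 FPKM it was just under the filter of 1 FPKM. In a fit with the filter at 0.1 FPKM its fold was 0.652 (95% interval 0.471 to 0.903), which did not pass (edgeR adjusted p = 0.128). In that fit 3.07% of 17964 genes were called lower. DESeq2 on the same genes gave an adjusted p of 0.0403, so whether KLK11 was called depended on the tool. The share of all genes that DESeq2 called lower at this filter is not given here. At the filter of 1 FPKM it called 846 genes lower, against 524 by edgeR.

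**Figure D2:**
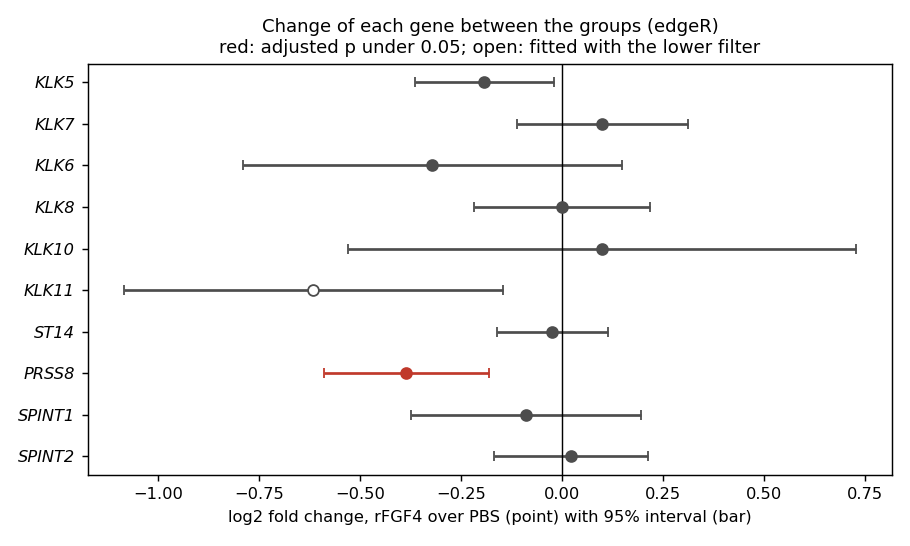
Log2 fold change of rFGF4 over PBS (horizontal axis) for each of the 10 genes, with the point as the edgeR estimate and the bar as its 95% interval; KLK11 (open) was fitted with the lower filter. PRSS8 at −0.39 is the point with an adjusted p under 0.05, and the intervals of ST14 and SPINT2 are the narrow ones around 0.

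The kallikrein cluster on chromosome 19 held 16 genes in the table, KLKP1 among them, and most of its RNA came from 3 of them. KLK5 made up 56.9% of the summed FPKM of the cluster in the PBS libraries and 53.5% in the rFGF4 libraries. KLK10 followed with 18.9% and 21.8%, and KLK8 with 13.4% and 14.4%. The sum over the cluster was 109.0, 108.8, 111 and 123 FPKM in the PBS libraries and 103.9, 96.7, 96.8 and 116 FPKM in the rFGF4 libraries, with overlapping groups. The 6 kallikrein members are neighbours: they lie in the stretch from KLK5 to KLK11, and within it only KLK9 was at 0 in most libraries.

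Outside that stretch KLK1 had the highest level, and its range overlapped that of KLK11. KLK1, the classical tissue kallikrein that releases kinin, was the 1 tested gene of the 9 other kallikreins, at 1.058 ± 0.21 FPKM in the PBS libraries and 1.12 ± 0.26 FPKM in the rFGF4 libraries (log2 change 0.11, SE 0.22, adjusted p = 0.797 by edgeR). KLK2, KLK3, KLK12 and KLK15 had 0 counts in all 8 libraries; KLK3 encodes the prostate antigen PSA. KLK13 had a mean of 0.252 FPKM, KLK14 one of 0.056 FPKM and KLK4 one of 0.003 FPKM. KLK9 was at 0.723 FPKM in PBS replicate 1, at 0.105 FPKM in rFGF4 replicate 4 and at 0 in the other 6 libraries.

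**Figure D3:**
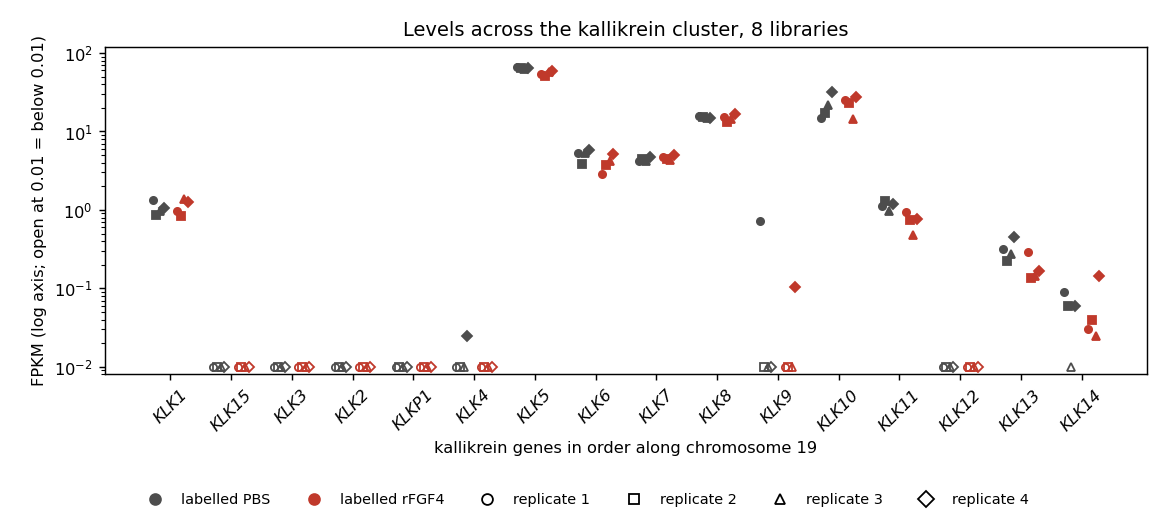
FPKM on a log axis for the 16 kallikrein genes in their order along chromosome 19, 1 symbol per library (grey PBS, red rFGF4; shape gives the replicate number, open symbols at the bottom are below 0.01 FPKM). KLK5, KLK6, KLK7, KLK8 and KLK10 stand above the rest in every library, KLK11 and KLK1 overlap near 1 FPKM, and KLK9 is listed at 0 in 6 libraries.

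PRSS8, which encodes prostasin, known as an activator of the epithelial sodium channel and needed for the epidermal barrier, fell in the libraries labelled rFGF4. The gene lies on chromosome 16 (31131433 to 31135727, minus strand). The PBS libraries stood at 15.0, 14.5, 13.6 and 15.3 FPKM and the rFGF4 libraries at 11.1, 9.74, 11.3 and 11.8 FPKM. Every rFGF4 library lay below every PBS library, as it did in CPM, at 34.1 to 44.3 against 47.7 to 55.4 CPM. The mean went from 14.6 ± 0.74 to 10.97 ± 0.88 FPKM (SD, n = 4), and the fold was 0.765 (95% interval 0.664 to 0.882, edgeR adjusted p = 0.0306). The fold kept its direction in all 16 other settings, at −0.45 to −0.32 on the log2 scale. The call ended in 7 of them: without PBS replicate 1, 2 or 4, without rFGF4 replicate 1 or 3, with no filter (adjusted p = 0.0783) and with filterByExpr (adjusted p = 0.0501).

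An antisense model, AC009088, overlaps PRSS8 by 445 bases and held 1 or 2 counts per library, against 2483 to 3919 for PRSS8. In bulk RNA, fewer cells that express a gene and less RNA per cell cannot be told apart. Of the cell markers, KRT15 of basal and TGM1 of differentiated keratinocytes were also lower in the rFGF4 libraries and KRT18 of simple epithelium higher. These were 1 of 7, 1 of 5 and 1 of 6 tested markers (7, 10 and 7 listed), beside 10% called of all genes tested. No other tested marker of these lists was called. On the log2 scale the other basal markers stood at −0.22 (KRT5), −0.17 (KRT14), 0.10 (COL17A1), 0.09 (ITGA6), 0.20 (ITGB4) and 0.03 (TP63). The other differentiated markers were at −0.26 (IVL), −0.004 (KRT10), 0.22 (FLG) and 0.20 (SPRR1B). Those of simple epithelium were at −0.32 (KRT19), −0.19 (MUC1), 0.11 (KRT7), 0.16 (KRT8) and 0.05 (EPCAM). The summed level of the basal list was 2228 to 2551 FPKM in the PBS libraries and 2047 to 2164 in the rFGF4 libraries. That of the differentiated list was 28.34 to 30.9 and 25.1 to 28.27, and that of the simple epithelial list 1146 to 1258 and 1059 to 1251. The groups did not overlap for the basal and the differentiated list, the latter by a narrow margin, and overlapped for the simple epithelial list. The basal sum came mostly from KRT14 and KRT5 (means 1026 and 910 FPKM), and the differentiated sum from KRT10 and IVL (12.7 and 10.7 FPKM). None of these genes was called, and the sums say little of the other markers in their lists. Of all single genes tested, 10.4% lay wholly below in FPKM. LOR, a marker of terminal differentiation, had 0 counts in all libraries. The dermal fibroblast list, with 0 of 6 markers at the filter, summed to 0.776 to 0.864 FPKM in the PBS libraries and 0.411 to 0.511 in the rFGF4 libraries, which did not overlap. The endothelial list summed to 1.86 to 3.09 and 3.08 to 4.09 FPKM, the macrophage list to 7.72 to 8.77 and 8.11 to 11.02, and the neutrophil list to 107 to 145 and 104 to 118. The macrophage sum came mostly from CD68 (mean 8.66 FPKM), with CSF1R at 0.024, ADGRE1 at 0.002 and MRC1 at 0.001 FPKM. The neutrophil sum came mostly from S100A9 (mean 112.7 FPKM), while CSF3R, MPO and ELANE had 0 counts in all libraries. The 4 remaining lists reached at most 0.577 FPKM in any library. The part of these markers in the fall of PRSS8 was not tested.

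Matriptase itself did not pass the test, and the data limit how much it can have differed. ST14 lies on chromosome 11 (130159782 to 130210362, plus strand) and was counted at 12695 to 16217 per library. The PBS libraries stood at 42.8, 44.7, 41.9 and 43.9 FPKM and the rFGF4 libraries at 45.2, 40.5, 40.1 and 41.6 FPKM. The lowest and the highest value both came from the rFGF4 group. The fold was 0.983, with a 95% interval from 0.894 to 1.08 (edgeR adjusted p = 0.845). ST14 was also the most even of the tested members, with a within-group SD of log2 CPM of 0.07, above that of only 9.99% of the genes tested.

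The inhibitors stood at levels between those of matriptase and prostasin. SPINT2 (chromosome 19, 38244035 to 38292615, plus strand) was at 33.8, 34.9, 32.0 and 37.3 FPKM in the PBS libraries and at 33.4, 33.9, 32.4 and 37.8 FPKM in the rFGF4 libraries. In both groups replicate 4 was the highest. The fold was 1.01 (95% interval 0.889 to 1.16, edgeR adjusted p = 0.91). SPINT2 shares 3465 bases with a model on the same strand, named AC011479, which held 68 to 93 counts in 3 libraries and 0 in the others, against 11990 to 16670 for SPINT2. A second model of that name, on the opposite strand, overlaps SPINT2 by 2307 bases and held 154 to 377 counts per library, so reads there cannot be told apart if counting ignored strand.

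SPINT1 (chromosome 15, 40844018 to 40858207, plus strand) was at 25.6, 26.7, 26.4 and 27.95 FPKM in the PBS libraries and at 25.9, 22.9, 19.9 and 29.7 FPKM in the rFGF4 libraries. The PBS libraries lay close together, while the rFGF4 group held both the lowest and the highest library. The fold was 0.940 (95% interval 0.771 to 1.15, edgeR adjusted p = 0.723). An antisense transcript at its start, SPINT1-AS1, stood at 2.94 ± 0.46 FPKM in the PBS libraries and 3.17 ± 0.48 FPKM in the rFGF4 libraries, and did not pass either (log2 fold change 0.13, SE 0.17, edgeR adjusted p = 0.70). It shares 370 bases with SPINT1, and reads of both strands cannot be told apart there if counting ignored strand.

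Ratios within a library need no scaling between libraries, and 6 of them were compared by an exact permutation test (two-sided; 4 against 4 libraries allow no p below 0.0286). In FPKM, RNA of matriptase exceeded that of each inhibitor in all 8 libraries. ST14 to SPINT1 was 1.67, 1.68, 1.58 and 1.57 in the PBS libraries and 1.74, 1.77, 2.02 and 1.40 in the rFGF4 libraries, with a raw and adjusted p of 0.543. ST14 to SPINT2 ran from 1.18 to 1.31 and from 1.10 to 1.35 (raw p = 0.514, adjusted p = 0.543, exact permutation test). Both pairs of groups overlapped.

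In FPKM, RNA of prostasin was below that of each inhibitor in all 8 libraries. PRSS8 to SPINT2 was 0.444, 0.415, 0.425 and 0.41 in the PBS libraries and 0.33, 0.287, 0.348 and 0.313 in the rFGF4 libraries. The groups did not overlap, and the p of 0.0286 was the smallest that this design can give, but adjusted over the 6 ratios it was 0.0571 (exact permutation test) and did not pass. ST14 to PRSS8 behaved in the same way, at 2.85 to 3.09 in the PBS libraries and 3.52 to 4.16 in the rFGF4 libraries, with the same raw and adjusted p in the exact permutation test. The 2 ratios share PRSS8 and are not independent of each other or of the fold change above. PRSS8 to SPINT1 was 0.515 to 0.587 in the PBS libraries and 0.427, 0.425, 0.566 and 0.398 in the rFGF4 libraries, where replicate 3 lay within the PBS range (raw p = 0.114, adjusted p = 0.171, exact permutation test).

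KLK7 to KLK5 was 0.065, 0.069, 0.067 and 0.074 in the PBS libraries and 0.089, 0.088, 0.075 and 0.085 in the rFGF4 libraries. Every rFGF4 library was above every PBS library, by a narrow margin between PBS replicate 4 and rFGF4 replicate 3. The geometric mean went from 0.069 to 0.084. KLK5 alone also lay apart in FPKM, so this ratio is not independent of that difference. How often ratios of other genes lie apart is not given here. As before, the raw p of 0.0286 became 0.0571 over the 6 ratios in the exact permutation test and did not pass. Without rFGF4 replicate 3 or 4 the adjusted p of these 3 ratios was 0.0429 (exact permutation test), but their raw p was still the smallest possible and only the adjustment moved, as a further ratio reached that p.

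**Figure D4:**
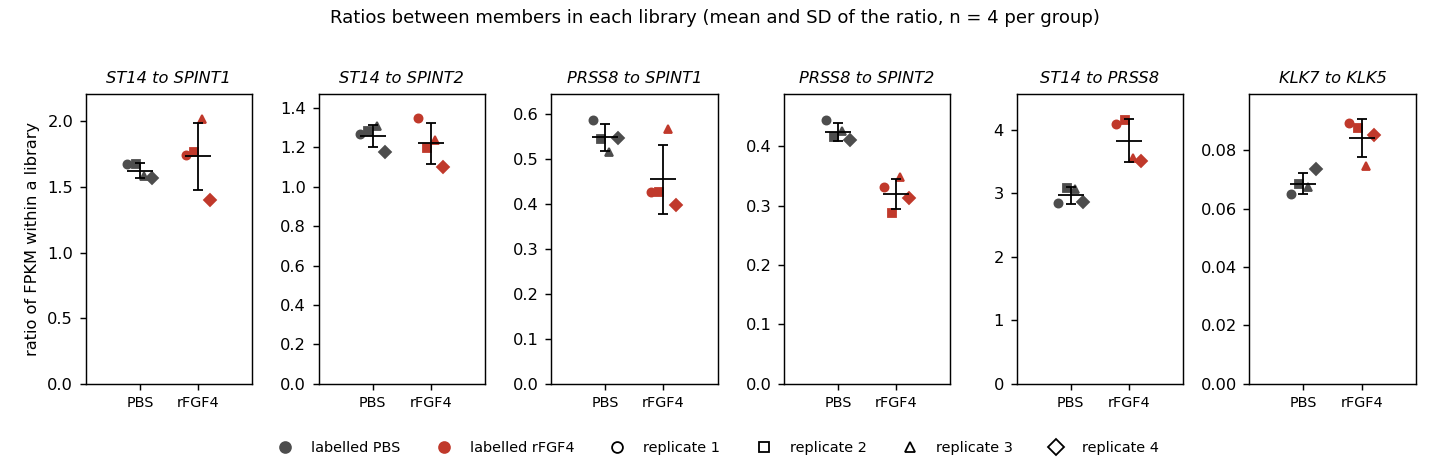
Ratios of FPKM within a library (vertical axes, each starting at 0) for 6 pairs of members; each symbol is 1 library (grey PBS, red rFGF4, shape for the replicate number), and the bars are the mean and SD of the ratio (n = 4). The groups stand apart for PRSS8 to SPINT2, ST14 to PRSS8 and KLK7 to KLK5, and overlap for the other 3 ratios.

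The wider epidermal serine protease network was read from a list of 70 genes, of which 19 reached the filter. Of these, 2 rose, 0 fell and 17 did not pass, which is 10.5% called beside 10% of all genes. At an unadjusted p under 0.05, 4 were higher and 2 lower, again without a share of all genes at that cut. Both genes that rose were in the sub-list of substrates and receptors (11 tested): CDCP1, a membrane protein that matriptase can cut, and IL1B, the interleukin-1 beta precursor. CDCP1 stood at 11.7, 10.9, 11.9 and 11.1 FPKM in the PBS libraries and 13.01, 13.7, 13.3 and 12.3 FPKM in the rFGF4 libraries, with no overlap (log2 fold change 0.22, SE 0.05, edgeR adjusted p = 0.0255). Its call ended in 10 of 16 other settings, among them each left-out library other than rFGF4 replicate 2 or 4, no filter (adjusted p = 0.0646) and both limma fits. IL1B was at 18.3 ± 0.86 and 34.7 ± 1.69 FPKM and was called in all 16.

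EPCAM, an epithelial adhesion protein and known matriptase substrate, was at 53.4 ± 1.39 and 54.2 ± 2.43 FPKM (log2 fold change 0.05, SE 0.06). A further pair of genes was chosen after their values were seen. F2RL1, which encodes the receptor PAR2 that kallikreins and matriptase can activate, stood 0.17 higher on the log2 scale (SE 0.08) and did not pass (edgeR adjusted p = 0.235). SCNN1A, the alpha subunit of the sodium channel that prostasin activates, was at 10.5 ± 0.39 and 10.7 ± 0.27 FPKM, while SCNN1B and SCNN1G had means of 0.011 and 0.005 FPKM.

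Of 19 other membrane-anchored serine proteases 3 were tested and 0 passed. PRSS22 stood at 7.04 ± 1.04 and 6.57 ± 0.58 FPKM and TMPRSS4 at 4.12 ± 0.59 and 3.91 ± 0.19 FPKM. TMPRSS11E, named after its values were seen, was at 1.40, 1.54, 1.29 and 1.23 FPKM in the PBS libraries and 1.09, 0.894, 0.97 and 0.926 FPKM in the rFGF4 libraries. It lay just outside the threshold at −0.47 on the log2 scale (SE 0.13, edgeR adjusted p = 0.052), and inside it in 4 of 16 other settings: median-of-ratios scaling (0.0498), DESeq2 (0.0157) and limma on log2(FPKM + 1) (0.0319) or log2(FPKM + 0.1) (0.0189). In the other 12, among them each left-out library, the replicate block and all 3 other filters, its adjusted p was 0.0755 to 0.17.

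Of 18 secreted inhibitors 4 were tested and 0 passed. SLPI, an inhibitor of leukocyte and epidermal proteases, stood at 17.3 ± 3.18 and 15.3 ± 0.96 FPKM, and PI3, the elastase inhibitor elafin, at 11.4 ± 2.12 and 11.8 ± 1.61 FPKM. SPINK5, which encodes the kallikrein inhibitor LEKTI and was chosen after its values were seen, was at 4.08, 3.72, 4.22 and 3.66 FPKM in the PBS libraries and 5.61, 5.08, 4.38 and 3.64 FPKM in the rFGF4 libraries. Its groups overlapped through rFGF4 replicate 4 (log2 fold change 0.28, SE 0.12, edgeR adjusted p = 0.194). The related inhibitors SPINK6 and SPINK9 had 0 counts in all libraries. The corneodesmosomal substrates CDSN, DSG1 and DSC1 had means of 0.028, 0.002 and 0.004 FPKM.

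Likeness of pattern was measured as the root mean square difference of log2 CPM, centred on each gene's mean, over the 8 libraries. The genes nearest to KLK5, the member protease with the highest level, were MARCKS (0.031), MAN2B1 (0.036) and UBAC1 (0.037). Nearest to SPINT2, the inhibitor with the highest level, were MRPS21 (0.026), RPS10 (0.032) and RPL27A (0.035). None of these 6 genes passed the test between the groups. As many as 546 and 1029 genes lay within 0.1 of KLK5 and of SPINT2, so such likeness was common.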

How the data were processed

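The authors deposited 1 table with FPKM and counts per gene for 8 libraries, per the file headers. Columns were matched to samples by name. HISAT2 2.0 and StringTie 1.3.0 are named without a role, per the submitters' processing notes. No source used here names the build, the annotation or whether strand was used. The deposited counts are whole but look like estimated counts: low values pile up at 4 (9781 entries, against 3485 at 3), and count and FPKM are proportional within a gene (SD 0.0013 on the log2 scale, 11103 genes). They were used as they stand. Listed FPKM of 0.0001 was read as 0.

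XIST, TSIX and Y-linked genes (521 of 58825) were left out. edgeR 4.0.16 (R 4.3.3; TMM, quasi-likelihood, two-sided, Benjamini-Hochberg over all genes tested, threshold 0.05) was fitted to genes whose FPKM averaged 1 or more. SE and 95% intervals follow from its statistic. Intervals are unadjusted. Alternatives were DESeq2 1.42.0, limma 3.58.1 on log2(FPKM + 1) and log2(FPKM + 0.1), other scaling and filters, a replicate block and each library left out. The edgeR fit was also run on simulated counts as a check of the code. How well it finds changes as small as those of the members is not reported here. Named were all members, the other kallikreins, and of each network sub-list the genes past the threshold and the 2 of highest level. Of these, 1 gene is not reported here. The members and lists were chosen with earlier results of these data known. Reference sequences at hand were of mouse and were not used.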

Additional observations from a re-analysis of the deposited data

Results flagged for a closer look

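In the ratio of PRSS8 to SPINT1, rFGF4 replicate 3 stood at 0.566, with the other libraries of its group at 0.398 to 0.427. The gap to the nearest library was 0.83 of the group's whole range, just over the critical value of 0.829 for 4 samples (Dixon). It was the single such value among 58 groups examined, and chance gives about 1 in 20. SPINT1 was at its lowest in that library (19.9 FPKM), and PRSS8 was within its group's range (11.3 FPKM). Without that library the difference in mean log2 ratio was −0.39 (adjusted p = 0.0429, exact permutation test) in place of −0.28 (adjusted p = 0.171, exact permutation test). The library left out was the rFGF4 library within the PBS range, so the rest stood apart and the raw p was the smallest possible. The lower p therefore says nothing further about this ratio.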

How the results depend on the processing

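Of the members, 0 were called higher in every setting run, and 1 was called lower, PRSS8, except for 0 with no filter or filterByExpr and 0 to 1 with a library left out. KLK11, varied apart from the filter of 0.1 FPKM, was called lower in 1 of 15 other settings, DESeq2 (adjusted p = 0.0403). The called genes numbered 633 higher and 524 lower, with 982 and 846 by DESeq2, and 326 to 622 and 275 to 547 with a library left out. Called network genes were 2 higher and 0 lower. There was 1 higher with either limma fit or no filter, and 1 lower with median-of-ratios scaling, DESeq2 or either limma fit. With a library left out there were 1 to 3 higher and 0 to 1 lower. With a library left out, the log2 difference ran from 0.0036 to 0.18 for ST14 to SPINT1, −0.096 to 0.0032 for ST14 to SPINT2 (the sign turned without rFGF4 replicate 4), −0.39 to −0.23 for PRSS8 to SPINT1, −0.45 to −0.36 for PRSS8 to SPINT2, 0.32 to 0.40 for ST14 to PRSS8 and 0.26 to 0.35 for KLK7 to KLK5. Without rFGF4 replicate 3 or 4 the last 3 had an adjusted p of 0.0429 (exact permutation test) at an unmoved raw p, because PRSS8 to SPINT1 (without replicate 3) or ST14 to SPINT1 (without replicate 4) also reached the smallest p. This says nothing further about the last 3. Members that did not pass and took either sign across settings were KLK8, KLK10, ST14 and SPINT2 (KLK10 from −0.04 to 0.36).

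Libraries share only a number: deviations of same-numbered libraries correlated at 0.12, 0.06, −0.02 and 0.27 for replicates 1 to 4 (across genes), and not every library correlated best with its own number. With the replicate number as a block, 561 genes were called higher and 452 lower, 1 member lower (PRSS8, edgeR adjusted p = 0.047), and 1 network gene higher (IL1B) and 1 lower. A sign-flip test over the 4 pairs cannot pass the threshold. KLK11 had the fewest counts of the members, at 126 to 315 per library, and the part of depth in its result was not tested.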
